A study of Homo sapiens with 14 samples.

Results

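Long noncoding RNAs (lncRNAs) are transcripts that are not known to be translated, and they act, or are made, in many different ways. Some stay in the nucleus, such as MALAT1 and NEAT1, and others are hosts whose introns carry small nucleolar RNAs (snoRNAs), the guides for chemical modification of ribosomal RNA. Host transcripts such as GAS5 and the SNHG genes are spliced, and the snoRNA is usually trimmed out of the intron that is removed. A flexible or exposed nucleotide reacts with a probe, so a profile of reactivity along a transcript reports its folding and its contacts.

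The lncRNA genes described here are those whose GENCODE gene type is lncRNA and that have at least 1 scored transcript with the same identifier and length in GENCODE release 44. For each gene the transcript of highest mean RPKM was taken. This gave 207 genes of the 5781 genes that have a transcript of equal length, 3349 of them protein-coding and 1574 processed pseudogenes. The genes come from 326 such lncRNA transcripts, out of 559 lncRNA transcripts from 279 genes in the profiles, and 72 lncRNA genes were left out because every transcript differed in length.

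All libraries came from K562, an established human leukemia cell line, and polyadenylated RNA was enriched before the libraries were made. For icSHAPE, cells (in vivo, 3 libraries) or refolded RNA (in vitro, 2 libraries) received 100 mM NAI-N3 for 5 min, a reagent that acylates the 2′-hydroxyl of flexible nucleotides, and 3 libraries received DMSO as the control. For icLASER, cells (2 libraries) or refolded RNA (2 libraries) received NAz-N3 from a 1 M stock with 10 min of UV light, which marks the C8 position of purines that solvent can reach, and 2 libraries without UV were the control. The authors merged these 14 libraries into 4 profiles, 1 for each reagent and condition. With 1 profile per condition there are no replicate values, so no SD, standard error or p-value can be given. Read numbers are not part of the tables, and the depth of a single value was not analysed here. Every difference below is one between 2 profiles, and rose and fell give its direction, with no test.

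A score of a nucleotide runs from 0 to 1. In each of the 4 profiles, every lncRNA transcript with at least 100 scored nucleotides reached a score of 1, and the median share of nucleotides at 1 was 5.05% to 5.07%, with a highest value of 5.85%. The scale is therefore set within each transcript, and a transcript's scores rank its own nucleotides. A stretch with very high scores lowers the others in the same transcript.

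Of the 12 K562 marker genes listed, 11 were present in every profile, among them the globin genes HBG1, HBG2, HBE1 and HBZ, and TAL1 was absent. Of 10 markers of other cell types, only EPCAM was present, at an RPKM of 20.3 to 27.1.

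The sequences below show examples of large falls in score. In each of 6 abundant listed genes, chosen by a rule on RPKM and location that left out SNHG6 (MALAT1, GAS5, SNHG5, ZFAS1, SNHG29 and SNHG32), the 30-nt window with the lowest summed in vivo minus in vitro difference of both reagents was taken, and the 3 windows with the lowest sums are printed. Letters are the GENCODE transcript, 5′ to 3′, and capitals mark nucleotides with an icLASER score of at least 0.5. Each window is exonic in its transcript.

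GAS5 exon 5, chr1:173866004-173866033 (GRCh38, minus strand), icLASER in vitro: TGCAGCCtGGATGATGATAAGcaAATGctG
GAS5, the same window, icLASER in vivo: tgcagcctggatgatgataAGcaaatgctg
SNHG29 exon 2, chr17:16439528-16439557 (GRCh38, plus strand), icLASER in vitro: GaAGtGccGtcAGaAGCGATAActGacGac
SNHG29, the same window, icLASER in vivo: gaagtgccGtcaGaagcGataactGacgac
SNHG32 exon 1, chr6:31835294-31835323 (GRCh38, plus strand), icLASER in vitro: TGTCGCTGATGccatcacCGcagcgctctG
SNHG32, the same window, icLASER in vivo: tGtcgctGatGccatcaccgcagcgctctg

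In vitro, 25, 17 and 14 of the 30 nucleotides reached 0.5 in these windows, and in vivo 2, 4 and 3 did. The mean icLASER score fell from 0.868 to 0.147 in the GAS5 window, from 0.603 to 0.168 in that of SNHG29 and from 0.502 to 0.126 in that of SNHG32. The icSHAPE mean fell in the same windows, from 0.448 to 0.118, from 0.495 to 0.264 and from 0.364 to 0.0932. All 3 windows overlap a snoRNA gene in the RefSeq annotation of GRCh38, SNORD44, SNORD49B and SNORD48 respectively, each of which lies wholly or partly in an exon of the transcript that was scored. GENCODE types the scored transcripts of GAS5, SNHG1, SNHG3 and SNHG12, among 7 of the 207, as retained intron, so that their exons include sequence that is intronic in other transcripts.

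The windows with the highest summed difference lay elsewhere in the same transcripts and overlapped no small RNA gene. They are shown for GAS5 and SNHG29 with the same marking.

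GAS5 exon 5, chr1:173865870-173865899 (GRCh38, minus strand), icLASER in vitro: cttaggtggagtccaacttgcctggaccag
GAS5, the same window, icLASER in vivo: cTTAGGTGGaGtccaactTgcctgGaccag
SNHG29 exon 5, chr17:16441571-16441600 (GRCh38, plus strand), icLASER in vitro: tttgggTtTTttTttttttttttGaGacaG
SNHG29, the same window, icLASER in vivo: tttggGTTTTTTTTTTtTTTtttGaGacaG

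The mean icLASER score of the GAS5 window was 0.0 in vitro and 0.406 in vivo. The SNHG29 window, which holds a run of U, rose from 0.281 to 0.593. U and C are not purines, and what their icLASER scores measure was not tested. The icSHAPE mean rose from 0.105 to 0.333 and from 0.117 to 0.360 in these windows. In SNHG5 and ZFAS1, whose scored transcripts hold no RefSeq small RNA gene in their exons, the lowest windows went with icLASER from 0.378 to 0.326 and from 0.454 to 0.420. With icSHAPE they went from 0.432 to 0.404 and, in ZFAS1, from 0.362 to 0.0889. Of the 30-mers of ZFAS1, 25.5% also occur in a transcript of another scored gene, so reads of other genes could be counted in it. In MALAT1 the lowest window was at 0.146 in vitro and 0.158 in vivo with icLASER, and at 0.129 and 0.0751 with icSHAPE.

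Of the 207 transcripts, 22 hold all or part of a RefSeq small RNA gene in their exons: 10 a snoRNA, 4 a transfer RNA (tRNA), 2 a small Cajal body RNA (scaRNA), 2 a small nuclear RNA, 2 a microRNA, and 1 each RNase P RNA and telomerase RNA. This split was made after the values had been seen. The RefSeq table gives no strand, so a small RNA gene on the opposite strand would be counted too. Reads of a separate small RNA could also be counted in any of these transcripts, and their part in the scores and RPKM was not tested.

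Most small RNA stretches scored above the rest of their transcripts in vitro, and most did not in vivo. Among stretches that made up under 50% of their transcript and had at least 20 scored nucleotides, the icSHAPE in vitro mean was higher inside the stretch than in the rest of the transcript in 17 of 18, with medians of 0.322 inside and 0.0447 outside. With icLASER in vitro it was higher in 10 of 12, with medians of 0.420 and 0.0829. In vivo the stretch was higher in 5 of 12 with icSHAPE and in 2 of 11 with icLASER, with icLASER medians of 0.0924 inside and 0.155 outside.

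Of the 11 stretches scored in both icSHAPE profiles, 9 were lower in vivo and the median difference was -0.248, while the rest of the transcript was higher in all 11, with a median of 0.0659. With icLASER all 11 stretches were lower in vivo, with a median of -0.315, and the rest was higher in 9 of 11, with a median of 0.0840. A fall of 0.2 or more occurred in 8 of 11 stretches with icSHAPE and 7 of 11 with icLASER. Among the 30-nt windows of lncRNAs outside small RNA genes, that fall occurred in 0.982% of 2241 windows with icSHAPE and 3.36% of 3806 with icLASER, and a fall of any size in 31.1% and 50.3%. Only a stretch or window with a mean of at least 0.2 in vitro can fall by 0.2, and sequence outside the stretches mostly started lower. Stretches and windows were matched neither for in vitro score nor for length, so these shares do not compare like with like. Because the scale is set within a transcript, the fall inside and the rise outside are not independent measurements.

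SNHG8, a host of the box H/ACA snoRNA SNORA24, showed the pattern over most of its 570 nt. The SNORA24 stretch of 131 nt scored 0.379 in vitro and 0.133 in vivo with icSHAPE, and 0.384 and 0.0866 with icLASER. Of the 30-mers of SNHG8, 18.9% also occur in the separately scored SNORA24 transcript, so reads of the snoRNA itself could be counted here. The rest of the transcript scored 0.0219 in vitro and 0.209 in vivo with icSHAPE, and 0.0338 and 0.228 with icLASER. The snoRNA stretch held the higher scores in vitro, and the flanking exon sequence held them in vivo.

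SNHG3, which carries SNORA73A, gave the largest falls inside a stretch, from 0.591 to 0.112 with icSHAPE and from 0.619 to 0.0924 with icLASER over 207 nt. Of its 30-mers, 16.1% occur in a transcript of another scored gene, 6.85% in SNORA73A. In GAS5 the 61 nt of SNORD44 fell from 0.327 to 0.0527 and from 0.496 to 0.121. In SNHG1, which was not scored by icLASER in vivo, SNORD31 fell from 0.514 to 0.188 with icSHAPE. In the unnamed gene ENSG00000264772 the 137 nt of SNORA67 fell from 0.318 to 0.0744 and from 0.365 to 0.0502. In ENSG00000262202 the 217 nt of SNORD3D, a U3 snoRNA gene, fell by 0.0445 and 0.0869.

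The same was seen in ENSG00000261889, a single-exon lncRNA of 748 nt at chr16:3156736-3157483 (GRCh38, minus strand). Nucleotides 7 to 79 of its transcript coincide with the lysine tRNA gene TRK-CTT3-1. Their mean score was 0.532 in vitro and 0.0671 in vivo with icSHAPE, and 0.541 and 0.0442 with icLASER. The remainder was at 0.0211 and 0.113, and at 0.0307 and 0.141.

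The 2 histidine tRNA stretches, in ENSG00000259932 and ENSG00000260035, did not fall, with icSHAPE means of 0.250 and 0.257, and of 0.222 and 0.227, in vitro and in vivo. Neither gene was scored by icLASER. The microRNA stretches, MIR612 in NEAT1 and MIR6080 in ARHGAP27P1-BPTFP1-KPNA2P3, were between 0.0152 and 0.115 in the 3 profiles that scored each, and MIR612 at 0.115 was level with the rest of NEAT1 at 0.116 with icSHAPE in vitro.

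RPKM, the read count per kilobase of transcript scaled to the size of the library, also differed between conditions at these genes. The profiles list 87 lncRNA genes in vitro and 106 in vivo with icSHAPE, and 116 in vitro and 174 in vivo with icLASER. Of these genes, 63 are in all 4, 23 in 3, 41 in 2 and 80 in 1. Among the 5781 genes of any type, 3157, 4158, 4014 and 4636 had at least 100 scored nucleotides in the profiles, in that order. Of them, 2780 had as many scored in both conditions with both reagents. The lowest RPKM in any profile was just above 5, so absence from a profile includes any gene below that level. The median RPKM of the lncRNAs was 15.2, 12.1, 11.02 and 9.72 in that order, over those with at least 100 scored nucleotides, against 18.6, 14.6, 14.3 and 14.2 over all such genes. In these RNA pools, fewer copies in a cell and a poorer yield of a library cannot be told apart.

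The in vivo to in vitro ratio of RPKM had a median of 0.969 over 73 lncRNA genes with icSHAPE, with quartiles of 0.773 and 1.13, and of 1.08 over 98 genes with icLASER, with quartiles of 0.976 and 1.35. With icSHAPE, 10 of 73 (13.7%) were at least 2-fold lower in vivo and 0 at least 2-fold higher, against 7.28% and 0.836% of all genes. With icLASER, 5 of 98 (5.10%) were lower and 1 higher, against 5.98% and 3.54%. The share of lncRNAs at least 2-fold lower with icLASER was close to that of all genes.

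Of the 10 icSHAPE genes, 8 hold a small RNA gene, among the 14 such genes measured, and 2 are among the 59 genes without one. With icLASER 4 of the 14 with a small RNA gene were at least 2-fold lower, and 1 of the 84 without. The median ratio was 0.422 with a small RNA gene and 1.02 without for icSHAPE, and 0.843 and 1.12 for icLASER.

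The most abundant lncRNA on average was ENSG00000283907, a spliced transcript of 494 nt on chromosome 19, with RPKM 902 and 283 by icSHAPE in vitro and in vivo, and 1050 and 400 by icLASER. Of its 30-mers, 16.8% also occur in a ribosomal RNA repeat unit of the genome, so reads from ribosomal RNA could be counted in it. ENSG00000279669, of 388 nt on chromosome 21, followed with 573, 541, 315 and 573.

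MALAT1 is a nuclear RNA found at speckles. Its scored transcript is a short one of 352 nt in 2 exons at chr11:65499042-65499706 (GRCh38, plus strand), and reads from other MALAT1 isoforms could be counted in it. Its RPKM was 694 in vitro and 28.3 in vivo by icSHAPE, and 319 in vitro and 404 in vivo by icLASER, so the reagents went in opposite directions.

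In ENSG00000261889, with the lysine tRNA gene, both reagents gave far lower values in vivo, 857 against 18.3 by icSHAPE and 402 against 9.24 by icLASER. GAS5, a host RNA linked to growth arrest, had 263 in vitro and 135 in vivo by icSHAPE, and 153 and 36.3 by icLASER. The lncRNA with the highest icLASER ratio was GIHCG, at 68.6 in vitro and 140 in vivo, while its icSHAPE values were 90.4 and 85.8.

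The mean score of a lncRNA transcript ranged from 0.0522 to 0.196 with icSHAPE in vitro and from 0.0695 to 0.239 with icLASER in vivo. With icSHAPE its median was 0.136 in vitro (n = 87) and 0.163 in vivo (n = 105), and with icLASER 0.142 in vitro (n = 116) and 0.151 in vivo (n = 173), over transcripts with at least 100 scored nucleotides. The same medians over all genes were 0.137, 0.159, 0.148 and 0.148. Whole transcripts of protein-coding genes were somewhat higher, at 0.149, 0.176, 0.160 and 0.164.

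For comparison, 3′ UTRs and coding sequences of mRNAs had icSHAPE medians of 0.119 and 0.163 in vitro and of 0.145 and 0.191 in vivo. Their icLASER medians were 0.116 and 0.172 in vitro and 0.164 and 0.166 in vivo. The lncRNAs lay between them in 3 profiles and below both with icLASER in vivo. The regions differ in composition, with a median GC share of 47.9% for the lncRNAs, 42.8% for 3′ UTRs and 51.8% for coding sequences.

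Each lncRNA was therefore set against the regions within 2 percentage points of its own GC share, of which there were at least 24. Against 3′ UTRs the median difference was 0.0211, 0.0143, 0.0348 and -0.0124 in the order icSHAPE in vitro, icSHAPE in vivo, icLASER in vitro and icLASER in vivo. The lncRNA was higher in 54 of 84, 66 of 105 and 94 of 115 genes in the first 3 profiles, and in 61 of 173 with icLASER in vivo. The last value turned direction with only genes in all 4 profiles (0.00511) and with the share of nucleotides at 0.5 or more (0.0109). Against coding sequences it was -0.0293, -0.0328, -0.0322 and -0.0215, and the lncRNA was lower in 70 of 83, 96 of 103, 102 of 111 and 120 of 163 genes. A lncRNA is a whole transcript here and the regions are parts of one. Set against whole mRNA transcripts of similar GC share, lncRNAs were lower in every profile, by medians of -0.0142, -0.0138, -0.0197 and -0.0174, so the higher values against 3′ UTRs turned direction.

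The Gini index measures how unevenly reactivity is spread, from 0 for equal scores to values near 1 when a few nucleotides hold all of it. Its median in lncRNAs was 0.820, 0.751, 0.793 and 0.789 in the same order, higher than in 3′ UTRs (0.779, 0.719, 0.753 and 0.703) and coding sequences (0.768, 0.698, 0.729 and 0.736). Against GC-matched 3′ UTRs the lncRNA index was higher by medians of 0.0306, 0.0295, 0.0284 and 0.0852, with 56 of 84, 71 of 105, 76 of 115 and 150 of 173 genes above. With only genes in all 4 profiles these medians were 0.0112, 0.0128, -0.000251 and 0.0341, so that of icLASER in vitro turned direction. Against GC-matched coding sequences it was higher by 0.0537, 0.0648, 0.0610 and 0.0606, with 64 of 83, 88 of 103, 103 of 111 and 133 of 163 above, and against whole mRNAs by 0.0339, 0.0346, 0.0329 and 0.0484. Over all genes, which include pseudogenes, the median index was 0.812, 0.752, 0.773 and 0.780, close to that of the lncRNAs.

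Across lncRNA genes, Spearman's rho of the Gini index with RPKM was -0.165, -0.338, -0.159 and -0.379 in the 4 profiles, lower in size in vitro. The share of scored nucleotides at exactly 0 fell with RPKM, with rho from -0.359 to -0.553 (n = 87 to 173). These are descriptions over genes that share a library. The part of depth in the Gini index was not tested. Against regions matched for GC share and for RPKM within 2-fold, the lncRNA medians were 0.0249 to 0.0740 above 3′ UTRs and 0.0366 to 0.0613 above coding sequences. This match used the RPKM of whole transcripts, not depth along them. For 3′ UTRs with icSHAPE in vitro it left 26 lncRNAs without a match.

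In the scores as deposited, most lncRNAs were higher in cells than after refolding with icSHAPE, and fewer were with icLASER. The in vivo minus in vitro difference of the mean score, over nucleotides scored in both conditions, had a median of 0.0253 with icSHAPE over 73 genes (quartiles 0.0103 and 0.0363) and of 0.0107 with icLASER over 98 genes (quartiles -0.00616 and 0.0287). Whole transcripts of coding genes had 0.0274 and 0.00804. The Gini index fell alongside, by a median difference of -0.0549 (67 of 73 lower) with icSHAPE and -0.0209 (63 of 98 lower) with icLASER. Since the scale is set within a transcript, a higher mean is higher only relative to the transcript's own top scores. With icSHAPE 7 of 73 lncRNAs (9.59%) were higher in vivo by 0.05 or more and 0 were lower by as much, against 7.71% and 0.132% of all genes and 11.7% of coding genes. With icLASER 10 of 98 (10.2%) were higher and 1 lower, against 2.11% and 0.777% of all genes and 1.93% of coding genes. Of 3′ UTRs, 22.5% were higher by this much with icSHAPE and 47.4% with icLASER, and of coding sequences 22% and 6.44%. Lower by as much were 2.29% and 1.34% of 3′ UTRs, and 1.87% and 10.2% of coding sequences. Of the 10 lncRNAs, 4 hold a small RNA gene, among 14 such genes, and 6 are among 84 without. When each profile was divided by its own mean, the icSHAPE median became 4.21e-05 of the profile mean, with 37 lncRNAs higher and 36 lower. The icLASER median was then 0.0765, with 65 higher and 33 lower, so the order of the reagents turned.

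The kinds of region parted with icLASER. The median icLASER difference was 0.0468 in 3′ UTRs and -0.00303 in coding sequences, with lncRNAs at 0.0107. Against GC-matched 3′ UTRs the lncRNA difference was lower in 87 of 98 genes, with a median of -0.0392 and quartiles of -0.0581 and -0.0189. Against GC-matched coding sequences it was higher in 67 of 93, with a median of 0.0144. With icSHAPE it was lower than both, by medians of -0.00702 (52 of 73 below) and -0.00371 (42 of 71 below). The latter turned to 0.0285 when scores were divided by the profile mean. Against whole mRNAs the medians were -0.00222 with icSHAPE and 0.00236 with icLASER, so with icLASER the fall against 3′ UTRs turned direction.

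Of the 63 lncRNA genes in all 4 profiles, 41 (65.1%) were higher in vivo with both reagents, 15 (23.8%) with icSHAPE alone, 5 with icLASER alone and 2 with neither. Over the 2780 genes so measured the first 2 shares were 63.8% and 23.3%. The lncRNAs higher by 0.05 or more with both reagents were SNHG8, at 0.0806 and 0.0736 with icSHAPE and icLASER, and SNHG6, at 0.0587 and 0.0550. These are 2 of 63 lncRNAs (3.17%), against 5 of 2780 genes (0.180%), a set that includes the lncRNAs.

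**Figure D1:**
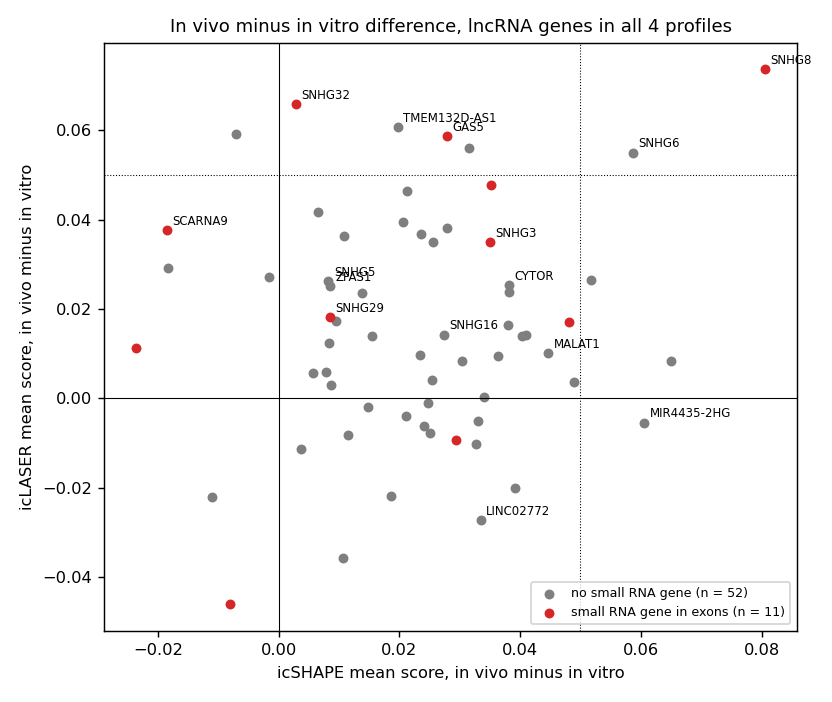
In vivo minus in vitro difference of the mean score with icSHAPE (x axis) and icLASER (y axis) for the 63 lncRNA genes in all 4 profiles, with dotted lines at 0.05. SNHG8 and SNHG6 lie above both dotted lines, and red points hold a small RNA gene in their exons.

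Among the listed snoRNA hosts, 14 of 32 were scored, 9 in all 4 profiles, and 8 of the 14 hold a small RNA gene in the scored exons, while 6 further hosts were left out for length. All 10 hosts measured by icSHAPE and all 11 measured by icLASER were higher in vivo, with medians of 0.0277 and 0.0350. Over all genes 2642 of 3022 were higher with icSHAPE and 2495 of 3604 with icLASER, so most genes shared the icSHAPE direction. Other lncRNAs were higher in 56 of 63 and 52 of 87, with medians of 0.0250 and 0.00775.

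SNHG6, whose scored transcript holds no small RNA gene, rose from 0.145 to 0.204 with icSHAPE and from 0.145 to 0.19997 with icLASER. SNHG32 was at 0.189 and 0.191 with icSHAPE and at 0.135 and 0.201 with icLASER. GAS5 went from 0.121 to 0.149 and from 0.0963 to 0.155. SNHG5, ZFAS1 and SNHG29 were higher in vivo with icSHAPE by 0.00824, 0.00858 and 0.00854, and by 0.0262, 0.0251 and 0.0182 with icLASER. SNHG16 rose by 0.0274 and 0.0143, and SNHG3 by 0.0350 with both.

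Of the 13 nuclear lncRNAs listed, 4 were scored. MALAT1 rose by 0.0446 with icSHAPE and 0.0102 with icLASER, while NEAT1, the scaffold of paraspeckles, was scored over at least 21939 nt in 3 profiles and differed by -0.00834 with icLASER. NEAT1 had a low mean score, 0.116 with icSHAPE in vitro and 0.10005 and 0.0917 with icLASER in vitro and in vivo, and a high Gini index of 0.860 to 0.892.

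CYTOR, a cytoplasmic lncRNA, rose by 0.0382 and 0.0253, while MIR4435-2HG, a microRNA host, rose by 0.0606 with icSHAPE and fell by 0.00549 with icLASER. These are near-identical copies: 69.2% of the 30-mers of CYTOR and 68.5% of those of MIR4435-2HG occur in the other, so their values are uncertain. Telomerase RNA, TERC, was scored only by icSHAPE in vitro, with a mean of 0.123 at an RPKM of 11.7.

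Among the 63 genes in all 4 profiles, those at the ends of the icSHAPE range were SCARNA9, ENSG00000275097 and ENSG00000270066, which fell by 0.0185, 0.0183 and 0.0237, and SNHG8, ENSG00000237311 and MIR4435-2HG, the latter 2 with 0.0649 and 0.0606. SNHG1, not scored by icLASER in vivo, had the highest icSHAPE difference of all 73 genes, 0.0809. ENSG00000270066 contains SCARNA2, which makes up 98.4% of its transcript, and SCARNA9 is itself a guide RNA of Cajal bodies that GENCODE types as lncRNA. ENSG00000275097 shares 63.6% of its 30-mers with the coding gene SINHCAF, whose exons, UTRs included, it overlaps on the same strand. SCARNA9 shares 20.4% with other genes. At the ends of the icLASER range of the 63 genes, ENSG00000259001, ENSG00000283235 and LINC02772 fell by 0.0460, 0.0357 and 0.0273, and SNHG8, SNHG32 and TMEM132D-AS1 rose by 0.0736, 0.0658 and 0.0607. Over all 98 genes the lowest icLASER difference was that of OTUD6B-AS1, which fell by 0.0590. The RNA of RNase P, RPPH1, makes up 53.4% of ENSG00000259001.

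Among the same 63 genes the most even profiles, by the mean Gini index over the 4 profiles, were those of ENSG00000279669 (0.652), ENSG00000274719 (0.658) and SNHG29 (0.677). The most uneven were ENSG00000236255 (0.918), ENSG00000260038 (0.893) and ENSG00000290536 (0.892). Of the 30-mers of ENSG00000290536, 26.9% also occur in a transcript of another gene, most often HNRNPA1. Over all 207 genes, 81 share more than 10% of their 30-mers with a transcript of another scored gene and 72 share none. The exons of 32 overlap exons of coding genes, UTRs included, on the same strand.

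Profiles of the same lncRNA correlated less between conditions than those of mRNAs. The median Pearson correlation over nucleotides of a transcript, in vivo against in vitro, was 0.440 with icSHAPE (n = 73) and 0.442 with icLASER (n = 98). Whole transcripts of coding genes had 0.501 and 0.574, 3′ UTRs 0.497 and 0.581, and coding sequences 0.508 and 0.605. The range was wide, from 0.0251 to 0.948 with icLASER, and nucleotides of a transcript share its libraries. The correlations were not matched for GC share or RPKM, and the part of either was not tested.

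MALAT1 had the highest correlations, 0.845 with icSHAPE and 0.948 with icLASER. SNHG8, GAS5 and ENSG00000261889 were the lowest with icLASER, at 0.0251, 0.0265 and 0.0776. Without a small RNA gene the median was 0.445 (n = 59) and 0.476 (n = 84). Between the reagents, the median correlation in lncRNAs was 0.329 in vitro (n = 75) and 0.328 in vivo (n = 89), against 0.374 and 0.356 in whole transcripts of coding genes.

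By base, icSHAPE marked A and U of lncRNAs most, with pooled means of 0.152 and 0.148 in vitro and 0.188 and 0.171 in vivo, and C least, at 0.102 and 0.118. With icLASER, G had 0.261 in vitro and 0.233 in vivo and A 0.132 in both. U, which is not a purine, had 0.0917 and 0.102, and C had 0.0625 and 0.0776. The icLASER means of whole transcripts and regions include U and C. Each pooled mean covers all transcripts scored in its own profile, so the sets of transcripts differ between in vitro and in vivo. The order of the bases was the same in 3′ UTRs and coding sequences with icLASER. G of 3′ UTRs had icLASER means of 0.264 in vitro and 0.271 in vivo, whereas G of coding sequences had 0.330 and 0.283.

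Scores fell from the 5′ to the 3′ end in 3 of the 4 profiles. In 5 equal bins along the lncRNAs in all 4 profiles, the icSHAPE median went from 0.180 in bin 1 to 0.09997 in bin 5 in vitro and from 0.199 to 0.124 in vivo. The icLASER median went from 0.205 to 0.0833 in vitro and from 0.167 to 0.155 in vivo. Bin 1 was higher than bin 5 in 47, 49, 52 and 33 of 61 lncRNAs. Whole transcripts of coding genes showed the same slope, from 0.183 to 0.105, from 0.215 to 0.129 and from 0.227 to 0.0980, and in icLASER in vivo they were at 0.183 and 0.185. Coding sequences precede 3′ UTRs in an mRNA, and the part of this slope in the comparisons with either region was not tested.

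The 162 spliced transcripts had medians of 0.139, 0.164, 0.143 and 0.149 in the 4 profiles, and the 45 single-exon ones 0.119, 0.133, 0.140 and 0.152. The median icSHAPE difference was 0.0255 in 61 spliced and 0.0194 in 12 single-exon genes, and the icLASER difference was 0.00896 in 74 and 0.0154 in 24.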

How the data were processed

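The authors trimmed reads with Trimmomatic, aligned them with Bowtie2 to the Ensembl release 88 transcriptome (GRCh38) and ran the icSHAPE pipeline, per the methods and the labels' list of tools. They deposited 4 pooled tables, each with an RPKM value per transcript and an enrichment score per nucleotide. Values are as deposited, and 16 scores of the whole series, 0 of them in these lncRNAs, lie outside 0 to 1.

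Sequence, exons and coding sequences came from GENCODE release 44, matched by identifier and length, and small RNA genes from RefSeq (GRCh38.p14). Means, Gini indices and differences used regions with at least 100 scored nucleotides (Python 3.11.15, numpy 2.4.6, pandas 2.3.3). Each lncRNA was compared with the median of at least 20 regions within 2 percentage points of GC share. The lncRNAs, lists and measures were chosen with earlier results of these data known. Named genes are list members in all 4 profiles, the 5 of highest RPKM, and the 3 highest and lowest by difference or Gini index; those named for a small RNA gene, NEAT1, TERC, GIHCG and OTUD6B-AS1 were added after values were seen. The scripts were tested on simulated data. The tables hold no read counts, so depth was not analysed here.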

Additional observations from a re-analysis of the deposited data

How the results depend on the processing

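No paired analysis was possible because the libraries were merged into 1 profile per condition, and for the same reason no library could be left out. Of 356 values recomputed under 14 alternatives, 311 stayed within 1.5 times the reported value (the share of nucleotides, in another unit, was compared by direction alone), 37 moved by more and 8 turned direction. The causes were not tested. The whole mRNA reference and the set without small RNA genes were chosen after seeing the data.

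Against whole mRNAs in place of regions, the mean score differences were -0.0142, -0.0138 and -0.0197 in icSHAPE in vitro, icSHAPE in vivo and icLASER in vitro, which turned the direction found against 3′ UTRs. The Gini differences were 0.0339, 0.0346, 0.0329 and 0.0484, and the in vivo minus in vitro differences were -0.00222 with icSHAPE and 0.00236 with icLASER, the latter turned against 3′ UTRs. With only genes in all 4 profiles, mean scores against 3′ UTRs were 0.0331, 0.0224 and, for icLASER in vivo, 0.00511, which turned, and Gini indices 0.0112, 0.0128, -0.000251 (icLASER in vitro, turned) and 0.0341. Against coding sequences those genes gave means of -0.0179 in icSHAPE in vitro and -0.00226 in icLASER in vivo, and Gini indices of 0.0396, 0.0403 and 0.0131 in the last 3 profiles.

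Without genes that share over 10% of 30-mers, 126 genes were left, 37 of them in all profiles, with 3′ UTR differences of 0.0224 (mean) and 0.0186 (Gini) in icSHAPE in vivo and 0.0151 (Gini) in icLASER in vitro. With the longest transcript, the 3′ UTR differences were 0.0112 and 0.00860 (mean, icSHAPE in vitro and in vivo) and 0.0466 (Gini, icSHAPE in vivo). With at least 300 scored nucleotides they were 0.00725 (icSHAPE in vivo), -0.00501 (icLASER in vivo) and -0.0261 (icLASER difference). Matched also on RPKM, the Gini index against coding sequences was 0.0366 in icLASER in vivo. The icSHAPE difference against coding sequences was -0.00802 with that match and -0.00194 with equal weight of the 4 bases. It was -0.00577 without genes whose exons overlap exons of coding genes. With scores divided by the profile mean it turned to 0.0285, and the icSHAPE median was 4.21e-05. The share of nucleotides at 0.5 or more turned icLASER in vivo against 3′ UTRs to 0.0109. Without small RNA genes the Gini index against 3′ UTRs was 0.0189 in icSHAPE in vitro. The tables hold no read counts, so what depth limits was not analysed here.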
